A study of Homo sapiens with 6 samples.

Results

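The 10 Wnt ligand genes described here are WNT3, WNT4, WNT5A, WNT5B, WNT6, WNT7B, WNT10A, WNT10B, WNT11 and WNT16. They were taken by name from a table of 57820 human genes, and all 10 were found there by Ensembl identifier. The human WNT family has 19 genes in the table, and the 9 others are given beside the 10. The 10 were chosen with earlier results of these data known, so the 9 are not an independent comparison. RNA was measured in the human colorectal carcinoma line HCT116 (WT, 3 samples), an established line, and in DKO1, a line derived from HCT116 in which the DNA methyltransferase genes DNMT1 and DNMT3B are knocked out (3 samples). The medium of both lines was McCoy's 5A with foetal bovine serum, and no other agent or allele is named in the labels. All DKO1 samples come from a single derived line and all WT samples from its parent. Effects of the knockouts and other differences between these lines cannot be told apart. Whether replicates were grown separately is not stated in the labels. The p-values therefore reflect how much these samples varied, and that variation may be technical.

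WNT genes encode secreted, lipid-modified signalling proteins that act on neighbouring cells. The acyltransferase PORCN attaches the lipid, and the carrier WLS brings the ligand to the cell surface. Ligands bind Frizzled receptors, with LRP5 or LRP6 as partners in the branch that stabilises beta-catenin, or with ROR, RYK or PTK7 in branches that act on cell shape and movement. In the gut, Wnt signals maintain the stem cells at the base of the crypts. HCT116 is known to carry a stabilising mutation of CTNNB1, the gene of beta-catenin. WNT3 is best known for the beta-catenin branch, and WNT5A, WNT5B and WNT11 for the other branches.

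The ligand repertoire differed between the genotypes mainly in a single gene. WNT16, the most abundant ligand of WT, was nearly lost in DKO1. WNT10B and WNT3 were the most abundant ligands of DKO1 and were not called different. WNT5B, close to silent in WT, rose to a low level, and WNT10A, WNT5A and WNT11 were higher in every DKO1 sample at levels below 1 TPM. Of the 29487 human genes above 0 TPM in any sample, 26% were likewise higher in every DKO1 sample than in any WT sample. TPM, a relative transcript abundance, divides each gene's signal by its length and gives all samples an equal total. Of the 10 genes, 4 reached the level for testing (1 TPM or more in 3 or more samples), of which 1 was called higher and 1 lower, at an adjusted p below 0.05. Of all 13604 genes tested with limma, 18.8% were called higher in DKO1 and 9.6% lower.

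The labels and the cell type were checked first. DNMT1 was at 231 to 250 TPM in WT and at 30.8 to 46.8 TPM in DKO1, and DNMT3B at 6.77 to 8.22 and 3.56 to 4.86 TPM. Both were called lower (limma adjusted p = 3.59e-05 and 0.03), and the DNMT3B call was lost in 5 of 14 alternative settings. TPM over a whole gene also counts transcripts of a disrupted allele, so this checks the labels in part. Of 15 epithelial markers 11 were at 1 TPM or above in every WT sample and 11 in every DKO1 sample, and their summed level was 993 to 1248 TPM in WT and 789 to 1036 TPM in DKO1. That sum is carried by EPCAM, KRT8 and KRT18, and single markers went both ways: 12 were tested, with 4 called higher (CDH1, CLDN4, ELF3 and ESRP1), 1 lower (CDX2) and a median log2 fold change of 0.4. With the replicate number as a block, KRT8 and KRT18 were called lower too (limma adjusted p = 0.011 and 0.047). CLDN3 and CDX1, an intestinal transcription factor, were listed at 0 in every WT sample. Some markers of other cell types were called higher in DKO1, namely 4 of 8 tested mesenchymal markers (VIM, CDH2, ZEB2 and SNAI2), 3 of 5 tested neural markers (STMN2, INA and MAP2) and 2 of 2 tested blood cell markers (CD3D and LYZ). No tested marker of these lists was called lower, and COL3A1, not tested, was wholly below WT. CDH2, ZEB2, STMN2, INA, CD3D and LYZ reached the level for testing through DKO1 alone, as did the epithelial marker ELF3. CDX2 did so through WT alone. The groups of such genes cannot overlap, so these calls add little to the levels. The block added SPARC (0.0134) and TUBB3 (0.0313). The summed level of 16 mesenchymal markers was 299.6 to 331 TPM in WT and 819 to 1031 TPM in DKO1, with CDH2 and ZEB2 at 0 in WT. The sum of 10 neural markers was 7.57 to 9.63 and 34.1 to 37 TPM, and that of 10 blood cell markers 0.39 to 0.96 and 8.52 to 10.7 TPM. The neural list held 11 genes, of which NEFL was not found by its symbol. HBB was listed at 0 in all 6 samples. Mitochondrially encoded transcripts took 20 to 20.3% of the human TPM in WT and 21.5 to 28.2% in DKO1. The part of these differences in the results below was not tested. In bulk RNA, fewer cells that express a gene and less RNA per cell cannot be told apart.

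Since the knocked-out enzymes methylate cytosine in CpG dinucleotides, the CpG content of the promoters is given before the levels. RefSeq windows of 300 bases (250 before and 50 after a listed start, GRCh38.p14) were found for 7 of the 10 genes, namely WNT3, WNT4, WNT5A, WNT5B, WNT6, WNT10A and WNT16, with 9 windows in all. The median over 35114 windows of all genes was 14 CpG. WNT4 had 47, and 97.6% of all windows had fewer. WNT6 had 37, WNT10A 30, WNT3 28, WNT16 20, and the WNT5A windows 21 and 22. The WNT5B windows, with 10 and 7, were the ones below the median. The motif CTTTGAT, a form of the site bound by TCF factors, was searched on both strands. It was found in 2.62% of all windows and in 0 of the 9. At so low a share, 9 windows are too few to tell whether these promoters lack it. The 250 bases before the start are shown for the gene that fell, WNT16, for the gene that rose, WNT5B, and for WNT5A, the relative of WNT5B, at its second listed start. Capitals mark each CpG. WNT16 lies at chr7:121328750-121328999 on the plus strand, WNT5B at chr12:1616806-1617055 on the plus strand and WNT5A at chr3:55481399-55481648 on the minus strand. The printed bases hold 17 CpG for WNT16, 10 for WNT5B and 18 for WNT5A.
WNT16: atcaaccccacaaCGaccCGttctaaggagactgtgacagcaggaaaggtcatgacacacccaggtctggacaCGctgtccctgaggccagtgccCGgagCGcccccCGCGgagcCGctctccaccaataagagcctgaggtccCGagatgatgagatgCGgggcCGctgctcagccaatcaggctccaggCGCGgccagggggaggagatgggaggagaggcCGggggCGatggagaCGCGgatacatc
WNT5B: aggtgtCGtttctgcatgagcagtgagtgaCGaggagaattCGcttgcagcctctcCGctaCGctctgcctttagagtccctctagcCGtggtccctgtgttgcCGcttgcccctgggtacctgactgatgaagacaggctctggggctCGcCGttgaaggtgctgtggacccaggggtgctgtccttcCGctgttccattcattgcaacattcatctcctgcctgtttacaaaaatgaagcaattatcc
WNT5A: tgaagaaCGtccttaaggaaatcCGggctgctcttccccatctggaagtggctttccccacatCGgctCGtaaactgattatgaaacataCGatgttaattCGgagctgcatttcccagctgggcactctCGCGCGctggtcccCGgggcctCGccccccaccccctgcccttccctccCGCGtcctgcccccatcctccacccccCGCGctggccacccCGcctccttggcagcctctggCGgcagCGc
In WNT16 8 of the CpG lie in the first 125 bases and 9 in the last 125, in WNT5B 7 and 3, and in WNT5A 6 and 12. No methylation values were used here, and the deposited levels do not separate transcripts, so which start was used is not known.

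**Figure D1:**
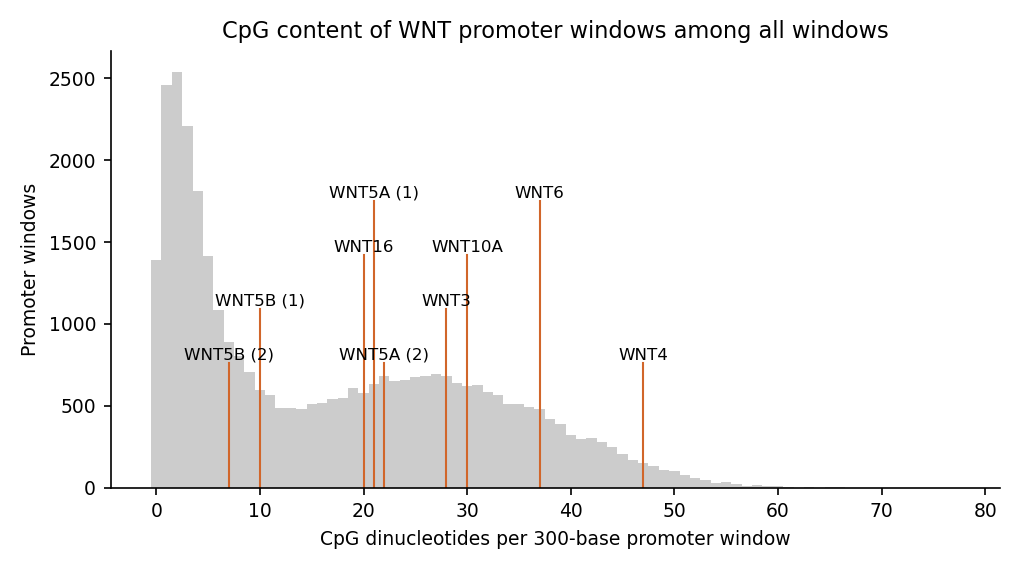
Number of CpG dinucleotides in 300-base promoter windows. Grey bars count all 35114 RefSeq windows by their CpG number, and orange lines mark the 9 windows of 7 Wnt ligand genes, with the window number in brackets where a gene has several. The lines run from 7 (WNT5B) to 47 (WNT4), with WNT16 at 20.

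WNT16 (ENSG00000002745.8, chromosome 7), a ligand studied in bone and in haematopoietic stem cell formation, was at 26.9, 27 and 27.7 TPM in WT replicates 1 to 3 and at 0.56, 0.81 and 0.63 TPM in DKO1. The groups were far apart, and the WT samples lay within 1 TPM of each other. The mean fell 40.8-fold, from 27.2 ± 0.47 to 0.67 ± 0.13 TPM (SD, n = 3 each), with a log2 fold change of −4.08 (SE 0.14, limma adjusted p = 5.47e-06). Log2 fold changes are DKO1 minus WT on log2(TPM + 1), which understates the change of low genes. The WT mean of WNT16 was at or above that of 67.8% of tested genes, and its DKO1 mean at or above that of 0.551%. WNT16 passed the filter through its WT values alone. The groups of such a gene cannot overlap, so the direction of its difference was fixed, though not that it would be called. The call was also made with no filter (adjusted p = 7.56e-05) and in each of the other alternative settings, 14 in all, with log2 fold changes from −5.17 to −4.04.

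WNT10B (ENSG00000169884.9, chromosome 12), a ligand of the beta-catenin branch, was at 7.14, 4.69 and 6.9 TPM in WT and at 4.73, 3.69 and 5.08 TPM in DKO1. DKO1 replicates 1 and 3 lay above the lowest WT sample, so the groups overlapped, although each DKO1 sample lay below the WT sample of the same number. The log2 fold change was −0.39, with a 95% interval from −0.86 to 0.08 (limma adjusted p = 0.192, and 0.0886 with the replicate block). Under quantile normalization, which gives all samples the same distribution of values, WNT10B was called lower (log2 fold change −0.69, adjusted p = 0.0219).

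WNT3 (ENSG00000108379.5, chromosome 17), the ligand that Paneth cells supply to crypt stem cells in the mouse gut, was at 3.72, 2.46 and 2.55 TPM in WT and at 2.79, 3.03 and 3.1 TPM in DKO1. The DKO1 values fell inside the WT range. The log2 fold change was 0.04 with a 95% interval from −0.37 to 0.44 (limma adjusted p = 0.894).

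WNT5B (ENSG00000111186.8, chromosome 12), a ligand of the beta-catenin-independent branches, was at 0.11, 0 and 0.04 TPM in WT and at 1.62, 1 and 1.53 TPM in DKO1. Every DKO1 sample was above every WT sample. The log2 fold change was 1.17 (SE 0.15, limma adjusted p = 0.000981). WNT5B passed the filter through its DKO1 values alone, so its groups could not overlap and its call adds little to its levels. The call was lost under quantile normalization (log2 fold change 0.41, adjusted p = 0.128), and a pseudocount of 0.1 gave a log2 fold change of 3.34. FBXL14, whose gene model overlaps WNT5B on the other strand, was at 0.05, 0.07 and 0.05 TPM in WT and at 0.38, 0.04 and 0.14 TPM in DKO1, below WNT5B in every DKO1 sample. Whether the authors' counting used the strand is not given in the sources used here.

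The 6 remaining genes did not reach the level for testing. WNT10A, a ligand of skin, hair and tooth development, was at 0.02, 0.04 and 0.01 TPM in WT and at 0.29, 0.53 and 0.35 TPM in DKO1. WNT5A, a ligand known for directing cell movement, was at 0.01, 0 and 0.01 TPM in WT and at 0.17, 0.18 and 0.35 TPM in DKO1. WNT11, a ligand of gastrulation movements and kidney branching, was at 0.21, 0.14 and 0.08 TPM in WT and at 0.7, 0.25 and 0.64 TPM in DKO1. In these 3 genes the groups did not overlap, and each had a two-sided exact permutation p of 0.1, the smallest that 3 against 3 samples allow. With no filter on low values, WNT10A and WNT5A were called higher (limma adjusted p = 0.00896 and 0.0226) and WNT11 was not (0.0823). In that fit 14.9% of 29487 genes were called higher.

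WNT7B, a ligand of lung and kidney epithelium, was at 0.8, 0.64 and 0.53 TPM in WT and at 1.76, 0.78 and 1.52 TPM in DKO1. DKO1 replicate 2 lay below WT replicate 1, so the groups overlapped (exact permutation p = 0.2, two-sided), although each DKO1 sample lay above the WT sample of the same number. WNT4, a ligand of kidney and female reproductive tract development, stayed at or below 0.13 TPM in all 6 samples. WNT6 was listed at 0 in 5 samples and at 0.11 TPM in DKO1 replicate 1. These last levels are too low to compare, since TPM keeps no record of depth.

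Over the 10 genes, DKO1 lay wholly above WT in 4 and wholly below in 1, and the groups overlapped in 5. Among the 29487 human genes above 0 TPM in any sample, 26% lay wholly above and 9.28% wholly below. The median difference of the 10 was 0.17 on the log2(TPM + 1) scale, and the median of the 4 tested was −0.18, beside 0.07 over all tested genes. The signs of these medians differ because most genes that were higher did not pass the filter.

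**Figure D2:**
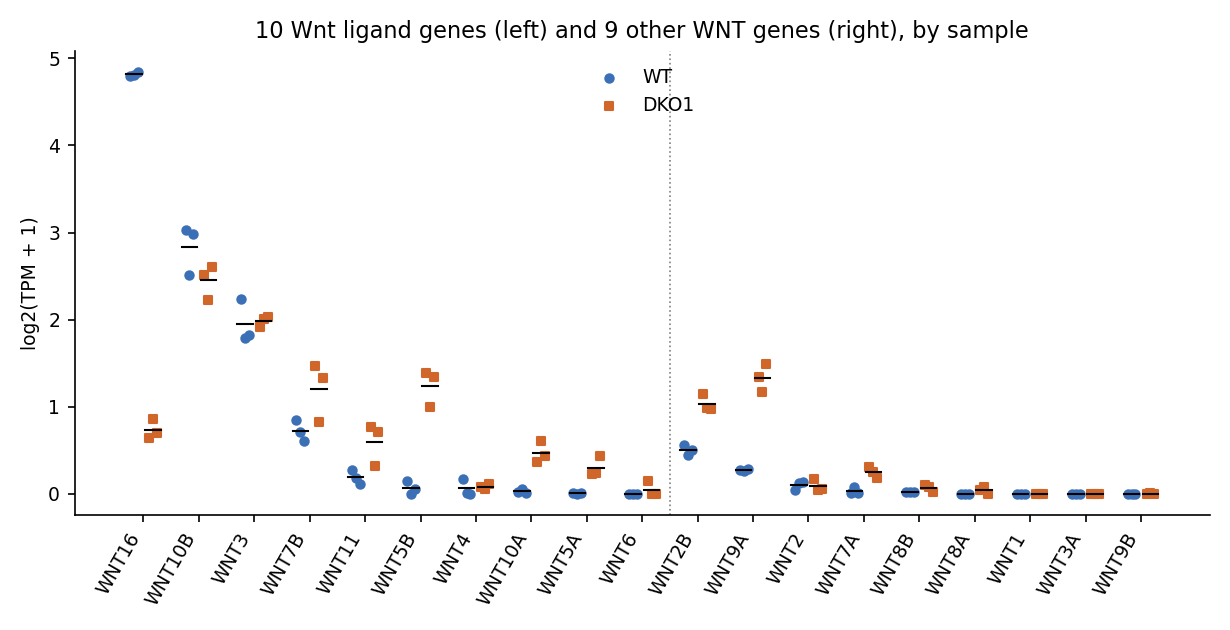
Levels of all 19 WNT genes as log2(TPM + 1). Each point is a sample (blue circles WT, orange squares DKO1, 3 each), and black bars are means, with the 10 Wnt ligand genes left of the dotted line. WNT16 drops from a WT mean of 27.2 TPM to a DKO1 mean of 0.67 TPM, while WNT5B and WNT9A stand above their WT points.

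The order of the ligands by TPM differed between the genotypes. In WT the order was WNT16, WNT10B, WNT3, WNT7B and WNT11, and each of the first 4 lay above the next in all samples. From WNT11 down, each gene overlapped the next, so their order is not resolved. In DKO1 WNT10B came first with 4.5 ± 0.72 TPM and WNT3 second with 2.97 ± 0.16 TPM, and each lay above the next in all samples. WNT5B (1.38 ± 0.34 TPM), WNT7B (1.35 ± 0.51 TPM), WNT16, WNT11 (0.53 ± 0.24 TPM), WNT10A and WNT5A followed, and each of these overlapped the next. WNT4 lay below them, and overlapped WNT6.

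The summed level of the 10 genes was 39, 34.9 and 37.9 TPM in WT replicates 1 to 3 and 12.8, 10.3 and 13.3 TPM in DKO1. WNT16 made up 68.9 to 77.2% of the sum in WT and 4.38 to 7.86% in DKO1. Without WNT16 the sums were 12.1, 7.98 and 10.1 TPM in WT and 12.2, 9.5 and 12.7 TPM in DKO1, and these overlapped. WNT10B and WNT3 together took 20.5 to 27.8% of the sum in WT and 58.8 to 65.2% in DKO1. No test was made of these sums.

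**Figure D3:**
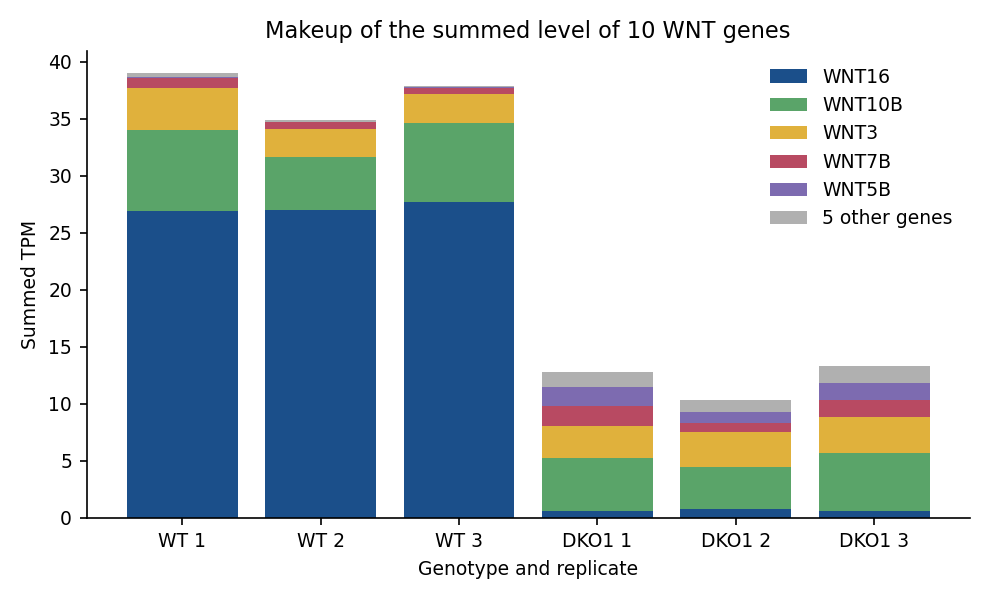
Summed TPM of the 10 Wnt ligand genes in each sample, as stacked bars with a colour for each of 5 genes and grey for the other 5. WNT16 (dark blue) fills most of each WT bar and a thin base of each DKO1 bar, and the part above it is of similar height in both genotypes.

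Among the 9 other WNT genes, 1 was tested. WNT9A, a ligand of joint development, was at 0.21, 0.2 and 0.22 TPM in WT and at 1.53, 1.25 and 1.82 TPM in DKO1 (log2 fold change 1.06, SE 0.14, limma adjusted p = 0.00103). It passed the filter through DKO1 alone, and its call was lost under quantile normalization (adjusted p = 0.0984). WNT2B was at 0.48, 0.36 and 0.42 TPM in WT and at 1.22, 0.98 and 0.96 TPM in DKO1, and WNT7A at 0.01 to 0.06 and 0.14 to 0.24 TPM. DKO1 was wholly above WT in these 3 genes, and the groups overlapped in the other 6. Among human genes above 0 TPM in any sample, 26% lay wholly above. WNT1 and WNT3A were listed at 0 in all 6 samples, and WNT2, WNT8A, WNT8B and WNT9B did not exceed 0.13 TPM.

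The nearest protein-coding gene on each side of each ligand gene was then examined, by the order in GENCODE 29. Leaving out WNT6 and WNT10A, which neighbour each other, these were 18 genes, of which 11 were tested. Of these, 2 were called higher and 2 lower, with a median log2 fold change of 0.01. Over all tested genes 18.8% were called higher and 9.6% lower. Both neighbours called lower flank WNT16. CPED1, on one side, was at 2.05, 1.57 and 1.85 TPM in WT and at 0.35, 0.33 and 0.31 TPM in DKO1 (log2 fold change −1.08, SE 0.13, limma adjusted p = 0.000751). FAM3C, a secreted protein gene on the other side, was at 302.6, 339 and 287 TPM in WT and at 105, 147 and 152 TPM in DKO1 (log2 fold change −1.21, SE 0.16, limma adjusted p = 0.00127). CPED1 passed the filter through WT alone, so its groups could not overlap, while FAM3C was far above the filter in both genotypes. Both genes were wholly lower in DKO1, and both calls, including that of CPED1 with no filter (adjusted p = 0.00325), were kept in every alternative setting in which the gene was tested.

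The stretch around WNT16 was widened to 4 protein-coding genes on each side after these values were seen. Of these 8 genes 5 were tested, and CPED1 and FAM3C were the 2 called, both lower, beside 9.6% called lower over all tested genes. Farther out, TSPAN12 was at 9.92 to 11.9 TPM in WT and 7.34 to 8.47 TPM in DKO1, and ING3, a chromatin protein gene, at 18.5 to 23.5 and 11.9 to 21.6 TPM. They did not pass, with log2 fold changes of −0.46 and −0.41 (limma adjusted p = 0.0534 and 0.211). With the replicate block TSPAN12 was called lower (0.0434) and ING3 was not (0.0697). AASS, an enzyme of lysine breakdown, was at 1.57 to 2.23 and 1.94 to 4.54 TPM (log2 fold change 0.42, limma adjusted p = 0.254). KCND2, PTPRZ1 and FEZF1 were not tested. KCND2 was at 0 TPM in every WT sample and at 0.05 to 0.2 TPM in DKO1. FEZF1 was at 0.1 to 0.17 TPM in WT and at 0.22 to 0.29 TPM in DKO1, so both were wholly higher in DKO1. PTPRZ1 was at 0.26 to 1.11 and 0.21 to 0.54 TPM, and its groups overlapped.

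**Figure D4:**
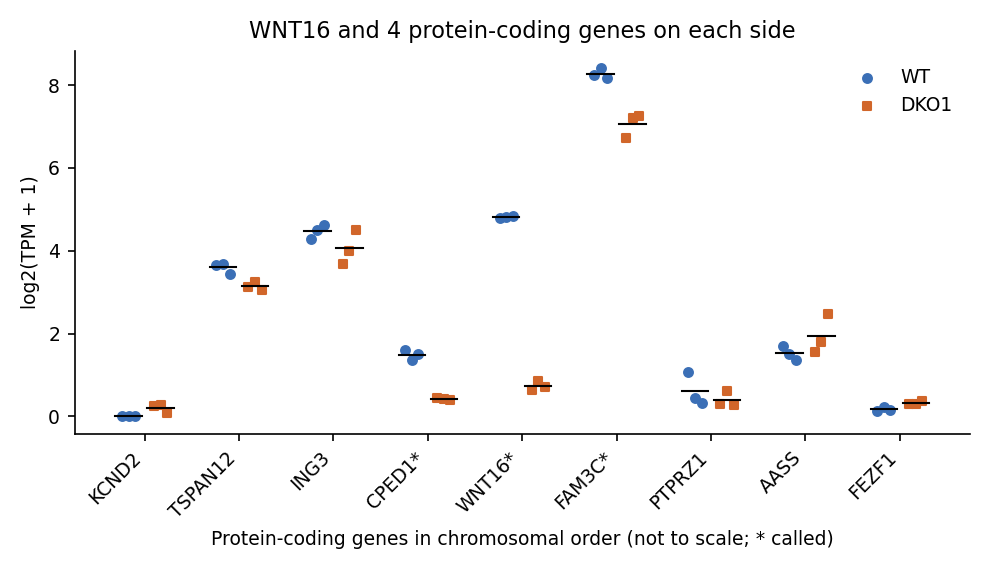
Levels of WNT16 and of 4 protein-coding genes on each side, in chromosomal order but not to scale, as log2(TPM + 1). Points are samples (blue circles WT, orange squares DKO1, 3 each), black bars are means, and asterisks mark called genes. CPED1, WNT16 and FAM3C stand lower in DKO1 in all samples, with log2 fold changes of −1.08, −4.08 and −1.21.

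The other ligands did not show called genes on both sides. ERC2, beside WNT5A and coding for a protein of synapses, was at 0.07, 0.07 and 0.04 TPM in WT and at 2.1, 2.99 and 2.27 TPM in DKO1 (log2 fold change 1.7, SE 0.14, limma adjusted p = 0.000141). ERC2 passed the filter through DKO1 alone, so its groups could not overlap either. The gene on the other side of WNT5A, LRTM1, was listed at 0 in all 6 samples. UVRAG, an autophagy gene beside WNT11, went from 6.86 to 8.98 TPM in WT to 12.3 to 18.4 TPM in DKO1 (log2 fold change 0.8, limma adjusted p = 0.0174). Its call was lost without WT replicate 1 (0.0707) or 2 (0.0553) and under quantile normalization (0.0533). WNT9B beside WNT3 and WNT1 beside WNT10B are described above, as is FBXL14 beside WNT5B. NSF beside WNT3, ARF3 beside WNT10B, CDC42 and ZBTB40 beside WNT4, ERC1 beside WNT5B, ATXN10 beside WNT7B and THAP12 beside WNT11 were tested and not called. With the replicate block ARF3 was called higher (log2 fold change 0.41, adjusted p = 0.0267) and THAP12 lower (−0.42, adjusted p = 0.037). PRKAG3, CDK5R2 and PRR34, beside WNT6, WNT10A and WNT7B, did not exceed 0.2 TPM.

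Genes with values most like those of the 3 most abundant ligands were found by the root mean square difference of log2(TPM + 1) over the 6 samples. For WNT16 these were the cytokine receptor subunit gene IL20RA (0.37), the kinase gene ALPK2 (0.47) and the nuclear receptor gene NR5A2 (0.5). IL20RA was at 17.5, 18.7 and 20 TPM in WT and at 0.45, 0.76 and 0.75 TPM in DKO1. Like WNT16, these genes passed the filter through WT alone. The genes nearest to WNT10B were ANKHD1-EIF4EBP3, RPL10AP6 and SRP9P1 (0.14 each), and those nearest to WNT3 were RASSF2 (0.11), FAM151B-DT (0.12) and SMARCAL1 (0.13). These last 6 genes were tested and not called. ANKHD1-EIF4EBP3 is a readthrough gene and RPL10AP6 and SRP9P1 are pseudogenes, which can share reads with their relatives.

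Release of ligands was represented by 11 genes, of which 6 were tested, 2 rose and 1 fell. The median log2 fold change of those tested was 0.04, beside 0.07 over all tested genes. WLS, the carrier that all lipid-modified ligands use, was at 138, 95.8 and 131 TPM in WT and at 40.2, 29.3 and 37.2 TPM in DKO1. It was lower in every DKO1 sample, 3.42-fold in the mean (log2 fold change −1.74, SE 0.18, limma adjusted p = 0.000384), and the call was kept in all 14 alternatives. SDC4, a cell surface proteoglycan, rose 2.82-fold, from 24.5 ± 1.27 to 69.3 ± 6.78 TPM (log2 fold change 1.46). TMED10, a cargo receptor of the secretory route, rose from 185 ± 12 to 267 ± 38.8 TPM (log2 fold change 0.52, adjusted p = 0.0255), but its call was lost in 6 of 14 alternatives. PORCN was at 0.66, 0.26 and 1.02 TPM in WT and at 0.42, 0.4 and 1.77 TPM in DKO1, not tested and overlapping.

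Of 10 Frizzled receptor genes 6 were tested, 1 rose and 1 fell, with a median of 0.2. FZD3, a receptor of axon guidance and cell polarity, fell from 16.6 ± 0.95 to 6.99 ± 1.16 TPM (log2 fold change −1.15, adjusted p = 0.00146), in all 14 alternatives. FZD4 rose from 3.49 ± 0.18 to 6.08 ± 0.95 TPM (log2 fold change 0.65, adjusted p = 0.0208), with the call lost in 4 of 13 alternatives. FZD6 had the highest Frizzled level, at 55.2, 58.7 and 61.5 TPM in WT and 30.9, 36 and 59.1 TPM in DKO1, and its groups overlapped. It was lower in DKO1 in all 3 same-numbered pairs, with a log2 fold change of −0.52 that was not called in the reported fit (adjusted p = 0.131) and was called with the replicate block (0.0496), which gives 2 Frizzled genes that fell. Of 10 co-receptors and alternative receptors 7 were tested, 2 rose and 1 fell, with a median of −0.25. LRP6 fell from 15.7 ± 0.074 to 10.7 ± 1.12 TPM (adjusted p = 0.0266), and the call was lost without DKO1 replicate 1 (0.0639) or any WT replicate (0.091 to 0.105). ROR1, a receptor for WNT5A, rose from 0.57 ± 0.07 to 1.47 ± 0.15 TPM (adjusted p = 0.00831) but not under quantile normalization (0.827), and it passed the filter through DKO1 alone. The call of RECK (log2 fold change 0.65, adjusted p = 0.0452) was lost in 10 of 13 alternatives. Both other receptors of WNT5A in the list, ROR2 and RYK, were not called. The groups of ROR2 overlapped. RYK was wholly lower in DKO1, at 71.85 to 84.56 TPM in WT and 58.83 to 70.75 TPM in DKO1. Its log2 fold change was −0.31 (limma adjusted p = 0.104).

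Of 16 secreted antagonist genes 5 were tested, 4 rose and 1 fell, with a median of 1.15. SFRP1, which binds ligands directly, was at 0.06, 0.08 and 0.03 TPM in WT and at 12, 12.4 and 7.31 TPM in DKO1 (log2 fold change 3.42, SE 0.21, adjusted p = 3.27e-05). DKK3 reached 4.09 ± 1.21 TPM from 0.03 ± 0.052 TPM. DKK1, which blocks LRP5 and LRP6, was the member that fell, with a log2 fold change of −1.41. It went from 1527 ± 67.9 to 576 ± 69.4 TPM, far above the levels of the 4 that rose. The counts and the median therefore do not describe the summed TPM of the list. SFRP1, DKK3 and NOTUM, the enzyme that removes the lipid from ligands, passed the filter through DKO1 alone. TRABD2A, an enzyme that cleaves ligands, was the other that rose, from 1.56 ± 0.51 to 4.61 ± 0.52 TPM. Among 9 genes of the R-spondin group, which controls receptor turnover, 4 were tested, 1 rose and 1 fell, with a median of 0.33. RNF43, a ligase that removes Frizzled receptors, rose from 1.88 ± 0.61 to 4.13 ± 1.08 TPM (adjusted p = 0.0287), and the R-spondin receptor LGR4 fell from 9.73 ± 0.86 to 5.76 ± 1.16 TPM (adjusted p = 0.0278). These calls were lost in 6 of 13 and 4 of 14 alternatives.

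The median log2 fold changes of the planar cell polarity, destruction complex and TCF/LEF lists that follow were 0.31, 0.17 and 0.13. Of 12 planar cell polarity genes 9 were tested, CELSR3 rose and INVS fell (log2 fold changes 0.77 and −0.54), and each call was lost in 6 alternatives. CELSR3 passed the filter through DKO1 alone and was not called with no filter (adjusted p = 0.0944). With the replicate block DAAM1 was called higher as well (adjusted p = 0.0462). Of 15 genes of Dishevelled proteins and the beta-catenin destruction complex 13 were tested, 2 rose and 2 fell. APC, a scaffold of that complex, fell from 18.5 ± 1.87 to 10.2 ± 4.1 TPM (log2 fold change −0.85, adjusted p = 0.0411), DVL3 rose from 9.64 ± 0.64 to 15.1 ± 0.86 TPM (0.59, adjusted p = 0.0147) and CTNNBIP1, an inhibitor of beta-catenin, rose from 6.97 ± 1.15 to 11.9 ± 2.42 TPM (0.68, adjusted p = 0.0379). The other gene that fell was AMER1, a partner of APC (log2 fold change −0.54). The call of APC was lost in 6, that of DVL3 in 3 and that of CTNNBIP1 in 8 of 14 alternatives, and that of AMER1 in 6 of 13. CTNNB1 was at 219, 191 and 197 TPM in WT and at 244, 204 and 251 TPM in DKO1, not called (log2 fold change 0.2, 95% interval −0.08 to 0.48). Of 13 TCF/LEF genes and partners 11 were tested, 1 rose and 2 fell. TLE1, a corepressor, rose 2.52-fold, from 5.79 ± 0.62 to 14.6 ± 2.47 TPM. PYGO1 and TCF7L2 fell, by 0.66 and 0.43 on the log2 scale, with calls lost in 2 of 13 and 7 of 14 alternatives.

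Of 21 feedback and target genes of the pathway 13 were tested, 9 rose and 1 fell, with a median log2 fold change of 0.83. Under quantile normalization 5 rose and the median was 0.45, and leaving out a single sample gave 7 to 9 that rose. BAMBI, a decoy receptor of the TGF-beta family, was at 0.33, 0.59 and 0.33 TPM in WT and at 6.12, 3.48 and 6.47 TPM in DKO1 (log2 fold change 2.13). SOX9, a transcription factor of crypt cells, rose 4.31-fold, from 9.94 ± 2.18 to 42.8 ± 10.9 TPM (log2 fold change 1.99, adjusted p = 0.000721). CD44, TNFRSF19, CCND1, NKD1, RNF43, NOTUM and EPHB2 were the others that rose, and DKK1 fell. SP5, not tested, was at 0.68, 0.44 and 0.47 TPM in WT and at 0.41, 0.2 and 0.38 TPM in DKO1. Over all 21 genes DKO1 lay wholly above WT in 15 and wholly below in 2, DKK1 and SP5. Among human genes above 0 TPM in any sample these shares were 26% and 9.28%. BAMBI, TNFRSF19 and NOTUM passed the filter through DKO1 alone. The calls of NOTUM (adjusted p = 0.773), EPHB2 (0.59), RNF43 (0.236) and NKD1 (0.0829) were lost under quantile normalization, and those of EPHB2 and RNF43 in 6 of 13 alternatives each. AXIN2, a widely used readout of the beta-catenin branch, was at 6.03, 4.68 and 5.3 TPM in WT and at 6.43, 6.98 and 6.55 TPM in DKO1, wholly higher but not called (log2 fold change 0.28, 95% interval −0.08 to 0.63, chosen after its value was seen). These pathway counts stand beside 18.8% higher and 9.6% lower over all tested genes. DKK1, NOTUM, RNF43, ZNRF3, LGR5, LEF1 and TCF7 are on more than a single list.

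**Figure D5:**
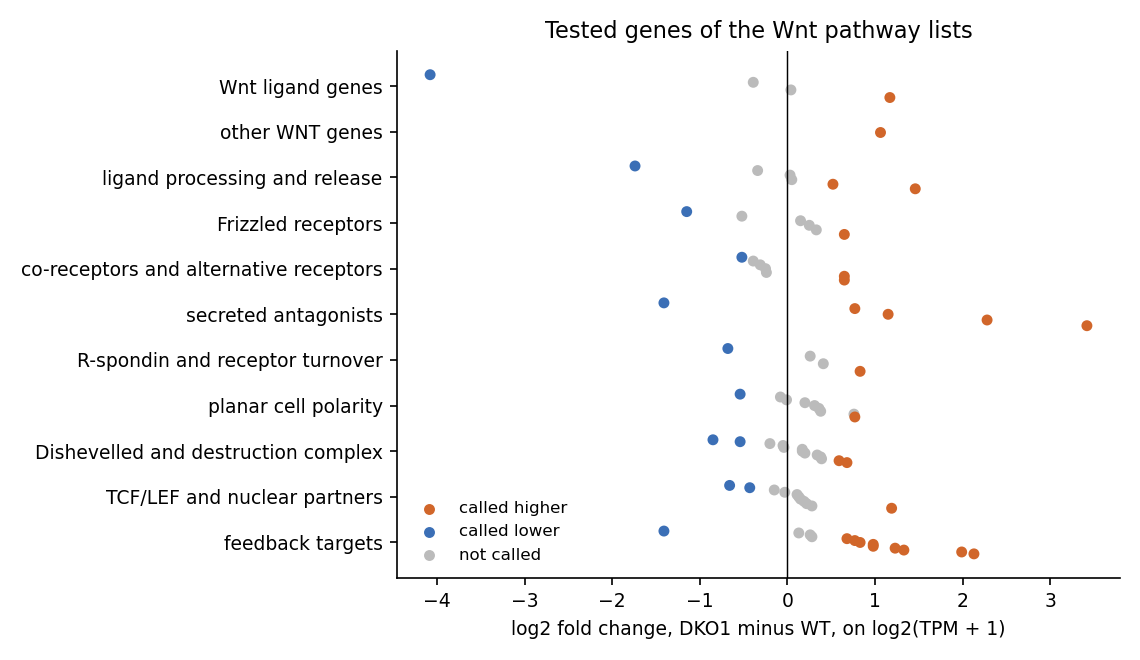
Log2 fold changes (DKO1 minus WT, on log2(TPM + 1)) of the tested genes in each Wnt pathway list. Each point is a gene, orange if called higher, blue if called lower and grey if not called, and genes on several lists appear in each. WNT16 is the leftmost point at −4.08 and SFRP1 the rightmost at 3.42.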

How the data were processed

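Per the labels' protocols, TRIzol RNA from cultured cells went into Illumina TruSeq stranded libraries. The authors deposited TPM per gene, rounded to 2 decimals, over human genes and 77 spike-in rows together. Per the submitters' processing notes, the tools were RSEM 1.2.21, STAR 2.5.3a, edgeR 3.12.1, FastQC and Trim Galore 0.4.0, and the builds hg19 and GRCh37, with no role or order given. Which annotation release and strand setting applied is not given in the sources used here. TPM keeps no depth, so the depth per sample is unknown.

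Symbols were matched by Ensembl identifier for 52338 human genes, and gene order came from GENCODE 29 on GRCh38. Spike-in rows were left out. limma 3.58.1 in R 4.3.3 modelled log2(TPM + 1) by genotype, allowing the variance to follow the mean level, over genes that reached 1 TPM in 3 or more samples. Benjamini-Hochberg adjustment ran over all 13604 genes, and calls were made below 0.05. The code was tested on simulated data. A ratio of TPM is given where both means reach 0.5 TPM. Every adjusted p is from limma unless an exact test is named.

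Named genes are all 19 WNT genes, DNMT1 and DNMT3B, up to 3 called genes with the largest change in each list, the nearest protein-coding genes and the 3 most similar genes of each of the 3 most abundant ligands. PORCN, DAAM1, the cell type markers beyond that rule, NOTUM, TRABD2A, AMER1, AXIN2, the remaining feedback targets, FZD6, ROR2, RYK, CTNNB1 and the wider stretch around WNT16 were named after values were seen. The members and lists were chosen with earlier results of these data known. Same-numbered samples of the genotypes deviated together, with correlations over genes of 0.35, 0.572 and 0.267 for replicates 1, 2 and 3. Other pairs gave −0.383 to 0.128. The reported fit nevertheless modelled genotype alone and did not use this pairing. The replicate block, an alternative, used it. The alternatives were other pseudocounts, filters and scalings, no variance trend, a replicate block, and leaving out each sample.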

Additional observations from a re-analysis of the deposited data

How the results depend on the processing

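Of the 10 ligand genes, 1 was called higher in the reported fit, 3 with no filter, 0 above a mean of 5 TPM (where WNT5B is not tested) and 0 under quantile normalization, by limma. In these last settings 0 were higher at an unadjusted p under 0.05 as well. Likewise 1 gene was called lower except under quantile normalization, where 2 were. WNT16 kept its call in 14 of 14 alternatives, while the adjusted p of WNT3 ranged from 0.213 to 0.965. The replicate block changed no call among the WNT genes: with it, 1 of the 10 was higher and 1 lower. Outside them it added calls for FZD6, DAAM1, ARF3, THAP12 and TSPAN12 and for the markers KRT8, KRT18, SPARC and TUBB3, and ended none in the lists or among the neighbours. Over all genes 2558 were higher and 1306 lower. No filter gave 4400 higher and a mean of at least 5 TPM gave 1145. Leaving out a single sample gave 1705 (without WT replicate 3) to 2842 higher (without DKO1 replicate 2) and 524 (without WT replicate 2) to 2079 lower (without DKO1 replicate 3). The number lower was 604 without WT replicate 1, 550 without WT replicate 3 and 842 without DKO1 replicate 1. The block gave 3053 higher and 1817 lower. Of all calls 66.2% were higher, and 48.4% under quantile normalization, where the median change over the tested genes was −0.066 in place of 0.073 (log2). Of the 31 genes called in the 9 pathway lists, 13 kept their call in every alternative in which they were tested. Unknown depth and rounding to 2 decimals limit every ligand below 1 TPM.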
